A study of Mus musculus with 71 samples.

Results

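H3K27me3, the histone mark of Polycomb repression, was mapped by CUT&RUN in undifferentiated mouse embryonic stem cells (ESC) that carried either wild-type CBX7 (WT) or the CBX7-CaPS form (CaPS). The comparison takes every peak of the deposited table of ESC H3K27me3 CUT&RUN, 4926 peaks assigned to 4261 genes, and sets the CaPS value against the WT value in each. It rests on 2 of the 71 samples of the series, 1 library per genotype, so there is no replicate check, no difference was tested, and intervals given below are exact 95% intervals (Clopper-Pearson, given the tags of both libraries) that cover counting error only. Both libraries came from J1 cells, an established mouse ESC line, labelled as 0 days of age and grown with LIF on a feeder layer of embryonic fibroblasts. From the series title, CaPS introduces into the stem-cell complex a Polycomb domain that is found in committed cells. The comparison addresses whether the mark differs where the altered CBX7 is the one present. The sources used here do not say how many clones each genotype represents.

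Polycomb repressive complex 2 (PRC2) places H3K27me3 on the chromatin of developmental genes that a cell keeps silent. Polycomb repressive complex 1 (PRC1) is brought to many of the same regions, in part because the chromodomain of a CBX subunit binds the mark, and CBX7 is the main CBX protein of ESC. RING1B gives PRC1 its ubiquitin ligase activity. In mammals the mark lies mainly over CpG-rich gene starts and spreads into broad domains at genes of body axis and organ formation, with the Hox clusters as the best known case. In CUT&RUN an antibody directs a nuclease to the mark in native nuclei and the released DNA is sequenced.

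Each value counts the tags of a peak per 10 M tags of its library, and where a gene is given a pair of values the first is WT and the second CaPS. The header totals were near-equal, 15.34 M tags for WT and 15.35 M for CaPS, so 1 tag is worth 0.652 tags per 10 M in WT. The peaks were 0.635 to 144 kb wide with a median of 3.90 kb, they covered 29.4 Mb, and none lay farther than 10.00 kb from an annotated gene start. A median peak held 94 tags in WT and 105 in CaPS, and no peak was at 0 in either library. Each peak reached at least 20.2 tags per 10 M in at least 1 of the libraries, while 485 peaks were under 20 in WT and 197 were under 20 in CaPS. Peaks of the weakest kind are thus in the table because 1 library was high there, and large ratios among them were favoured by how the table was made. Of 8 ESC markers, genes that ESC keep active, Klf4 and Esrrb had a peak, and Pou5f1, Nanog, Sox2, Zfp42, Dppa4 and Tdgf1 had none. Of 9 feeder fibroblast markers, which ESC keep silent, 6 had a peak. The start itself lay inside a peak for 1 of the 8 and 3 of the 9, beside 2473 of 27025 genes with a RefSeq promoter. Most genes thus had no peak, so a marker without one does not identify the cells.

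The promoters that follow show what kind of sequence lay under the peaks with the strongest WT value, the lowest ratio and the highest ratio, beside a CpG-rich promoter of a pluripotency gene without a peak. They are RefSeq sequences of build GRCm38.p6, the assembly called mm10 in the files, read 5′ to 3′ on the gene's strand and ending just before the start. Capitals mark CpG dinucleotides. Hoxa3 (chr6:52213068-52213317, minus strand) encodes a homeobox factor of the anterior body axis, and its start lay in the peak over the HoxA cluster. Tmc7 (chr7:118584830-118584936, minus strand, shown only upstream of the outermost transcript) encodes a transmembrane channel-like protein. Nr5a2 (chr1:136953631-136953880, minus strand, the inner of 2 listed starts) encodes a nuclear receptor of the pluripotency network. Klf2 (chr8:72318812-72319061, plus strand) encodes a Krüppel-like factor of naive pluripotency.
Hoxa3: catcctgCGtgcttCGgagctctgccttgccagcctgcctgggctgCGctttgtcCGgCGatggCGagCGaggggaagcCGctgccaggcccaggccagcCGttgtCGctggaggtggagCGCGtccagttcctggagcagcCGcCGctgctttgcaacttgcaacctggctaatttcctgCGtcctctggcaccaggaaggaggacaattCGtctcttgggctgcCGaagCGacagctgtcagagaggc
Tmc7: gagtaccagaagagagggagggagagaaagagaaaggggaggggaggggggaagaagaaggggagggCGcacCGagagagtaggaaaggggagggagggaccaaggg
Nr5a2: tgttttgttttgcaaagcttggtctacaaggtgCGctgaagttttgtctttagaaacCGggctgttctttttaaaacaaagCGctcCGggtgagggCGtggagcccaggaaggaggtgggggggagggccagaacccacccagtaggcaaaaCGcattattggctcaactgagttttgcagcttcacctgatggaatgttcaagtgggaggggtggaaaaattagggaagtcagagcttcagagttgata
Klf2: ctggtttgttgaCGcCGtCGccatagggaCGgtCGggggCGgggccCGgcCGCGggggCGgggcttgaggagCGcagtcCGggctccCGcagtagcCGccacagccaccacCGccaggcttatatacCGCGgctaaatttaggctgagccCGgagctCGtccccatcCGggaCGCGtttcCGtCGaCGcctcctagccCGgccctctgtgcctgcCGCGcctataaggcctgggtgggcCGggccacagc
Counted over the whole promoter window, 250 bases before to 50 after the start, Hoxa3 had 20 CpG, Tmc7 22, Nr5a2 7 and Klf2 32. Of all 32851 RefSeq promoter windows 26.5% held at least as many CpG as Hoxa3, 23.1% as Tmc7, 52.1% as Nr5a2 and 9.52% as Klf2. A CpG-dense start was thus seen with and without a peak in these 4 genes. Over the table as a whole, 2926 promoter windows of 2473 genes had their start inside a peak, with a median of 18 CpG, against 6 for the 29925 windows outside. At least 10 CpG were found in 75.3% of the windows with a start in a peak, in 40.4% of those outside and in 43.5% of all. The median CpG count was 18 where CaPS was above WT and 17 where it was below. It was 15 in the 51 windows in peaks past 2-fold higher and 21 in the 7 in peaks past 2-fold lower.

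Across the peaks H3K27me3 was moderately higher in the CaPS library. The value was above WT in 3590 peaks (72.9%) and below it in 1336, and the median log2 ratio of CaPS to WT, computed here as log2 of (value + 1), was 0.24, a 1.18-fold level. The middle of the distribution was narrow, with quartiles at -0.02 and 0.48. Summed over all peaks, 5.83% of WT tags and 7.32% of CaPS tags lay in peaks, a ratio of 1.26. Tag density over the peaks was 19.9 tags per kb in WT and 24.9 in CaPS. The direction of this overall shift depends on the scaling: with both libraries set to the same sum over peaks, every ratio moved by -0.33 and the median became -0.08, with 40.6% of peaks above WT. What follows is therefore read against the median of all peaks as well as against 0.

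The ratio passed 2-fold in few peaks. It was 2-fold or more higher in CaPS in 207 peaks, 4.20% of those compared, and 2-fold or more lower in 43, or 0.873%. The excess of higher over lower peaks depends on the scaling: with the same sum over peaks 81 were higher and 155 lower, and with the median ratio set to 1 the counts were 102 and 106. The counting interval of the ratio excluded 1 in all 207 and all 43. This follows from the 2-fold cut itself where each peak reaches at least 20.2 tags per 10 M in 1 library, so it adds no support. The interval lay wholly beyond 2-fold in 26 and 2 peaks respectively. Most of these peaks were weak and narrow. Of the 207, 141 were under 20 tags per 10 M in WT, and of the 43, 34 were under 20 in CaPS. Among the 4244 peaks at 20 or more in both libraries, 66 were higher and 9 lower past 2-fold, a choice made after seeing the data. The median width was 1.81 kb in peaks past 2-fold higher, 1.84 kb in those past 2-fold lower and 3.90 kb in all. Without regard to the fold, the interval lay above 1 in 1718 peaks (34.9%) and below 1 in 282 (5.72%).

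**Figure D1:**
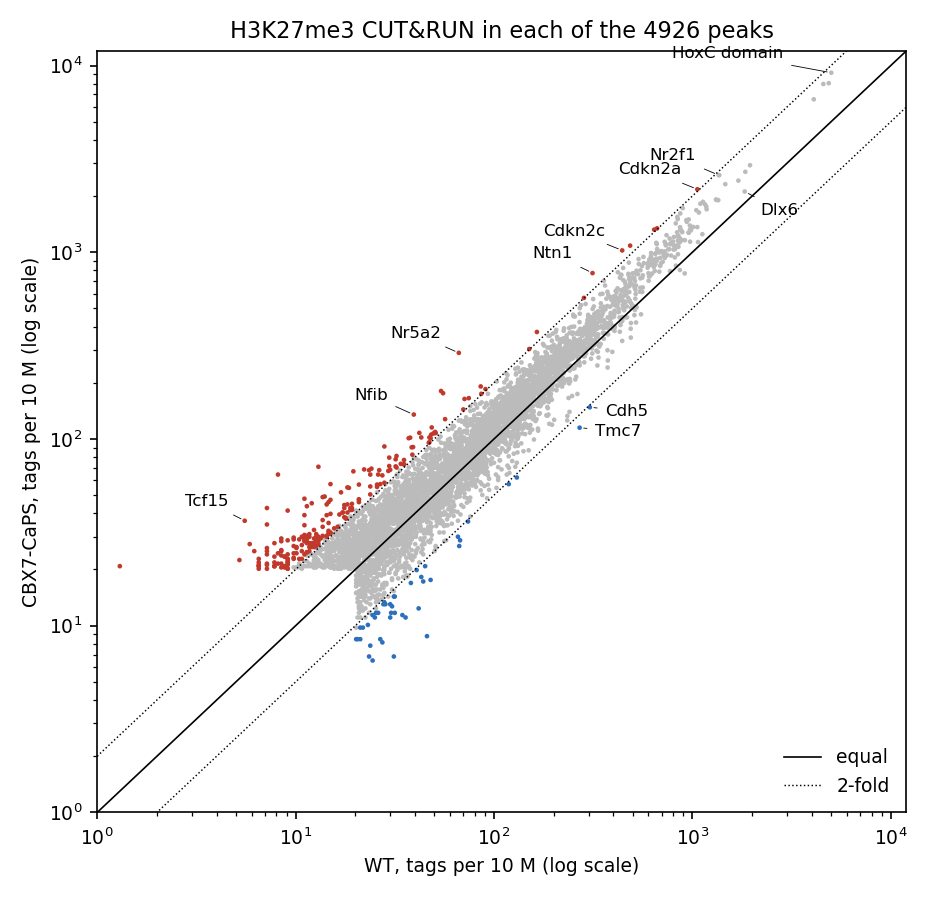
Each point is 1 of the 4926 peaks, with the WT value on the x axis and the CaPS value on the y axis, in tags per 10 M on log scales. Red points are 2-fold or more higher in CaPS (207), blue points 2-fold or more lower (43), the solid line is equality and the dotted lines are 2-fold. Of the 985 peaks with the highest mean value 884 lie above the line of equality; with both libraries set to the same sum over peaks, 81 points would be 2-fold or more higher and 155 lower. The empty corner at the lower left shows that every peak reaches 20.2 in at least 1 library.

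The widest peak over each of the 4 Hox clusters had one of the 4 highest values of the table in both libraries, and each was higher in CaPS, also after the shift of -0.33 that the same sum over peaks gives. A separate peak at Hoxb13 was weaker and higher in CaPS as well. Hox genes encode the homeobox factors that set position along the body axis, and all 39 lay wholly inside 5 peaks. The peak over the HoxC cluster, whose nearest annotated start is Mir196a-2, spanned 144 kb (chr15:102902015-103045606) with 9 Hox genes and had 5015 tags per 10 M in WT and 9151 in CaPS, a ratio of 1.82 (interval 1.77 to 1.88). The HoxA peak, 132 kb with 11 Hox genes (chr6:52146639-52278491), had 4869 in WT and 8042 in CaPS, a ratio of 1.65 (1.60 to 1.70). In the HoxB cluster a 138 kb peak from Hoxb1 to Hoxb9 (chr11:96249580-96387230) had 4571 and 7965, a ratio of 1.74 (1.69 to 1.79). The separate 41.5 kb peak at Hoxb13, the most posterior gene of that cluster, had 1367 and 2588, a ratio of 1.89 (1.80 to 2.00). The HoxD peak, 133 kb with 9 Hox genes and Evx2 (chr2:74640940-74773646), had 4091 and 6592, a ratio of 1.61 (1.56 to 1.66). The 5 peaks thus had log2 ratios from 0.69 to 0.92, and the lower bound of each interval was above the median fold of all peaks, 1.18. Per kb, which sets their widths aside, they held 30.8 to 36.9 tags in WT and 49.7 to 63.7 in CaPS.

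The other 7 of the 12 genes with the highest WT value were also regulators of development for the most part. Each was higher in CaPS as deposited, as were 884 of the 985 peaks with the highest mean value. With the same sum over peaks, which moves each log2 ratio by -0.33, Dlx6 (0.20) would be lower in CaPS and the rest would stay higher. The 61.5 kb peak whose nearest start is Gm29683 covered Nr2f2, an orphan nuclear receptor of vein and atrium formation, and had 1952 tags per 10 M in WT and 2925 in CaPS, a log2 ratio of 0.58. Nr2f1, the related nuclear receptor of cortical patterning, had 1355 and 2591, a ratio of 1.91 (1.81 to 2.02), the largest among the 12. Dlx6, a homeobox gene of limb and forebrain that shares its 44.3 kb peak with Dlx5, had 1836 and 2115, a ratio of 1.15 (1.10 to 1.21), the smallest among them. The peak at 5033428I22Rik covered Hand2, a heart and limb factor, with 1706 and 2419. The peak of Wnt10a also covered Wnt6, another Wnt ligand, with 1465 and 2316. Pax3, a paired-box factor of neural crest and muscle precursors, had 1350 and 1901. Peg12, an imprinted gene, lay under a 69.0 kb peak with 1849 and 2697. Neighbours in strength thus differed in ratio: the intervals of Dlx6 and Nr2f1 do not overlap.

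Broad domains as a class were further above WT than the rest. The 178 peaks over 20 kb wide had a median log2 ratio of 0.49, with quartiles at 0.35 and 0.62, and 170 of them were above WT. The 533 peaks of 10 to 20 kb had a median of 0.29, the 1253 of 5 to 10 kb 0.22, and the 1985 of 2 to 5 kb 0.17. The 977 peaks under 2 kb had a median of 0.31 but a wide spread, with quartiles at -0.12 and 0.66. These narrow peaks include most of those under 20 tags per 10 M in 1 library. Sorted by tags per kb, the 985 densest peaks had a median of 0.35 and the other four equal groups had 0.18 to 0.23. Peaks over 20 kb held 24.9% of the WT tags in peaks and 28.9% of the CaPS tags.

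**Figure D2:**
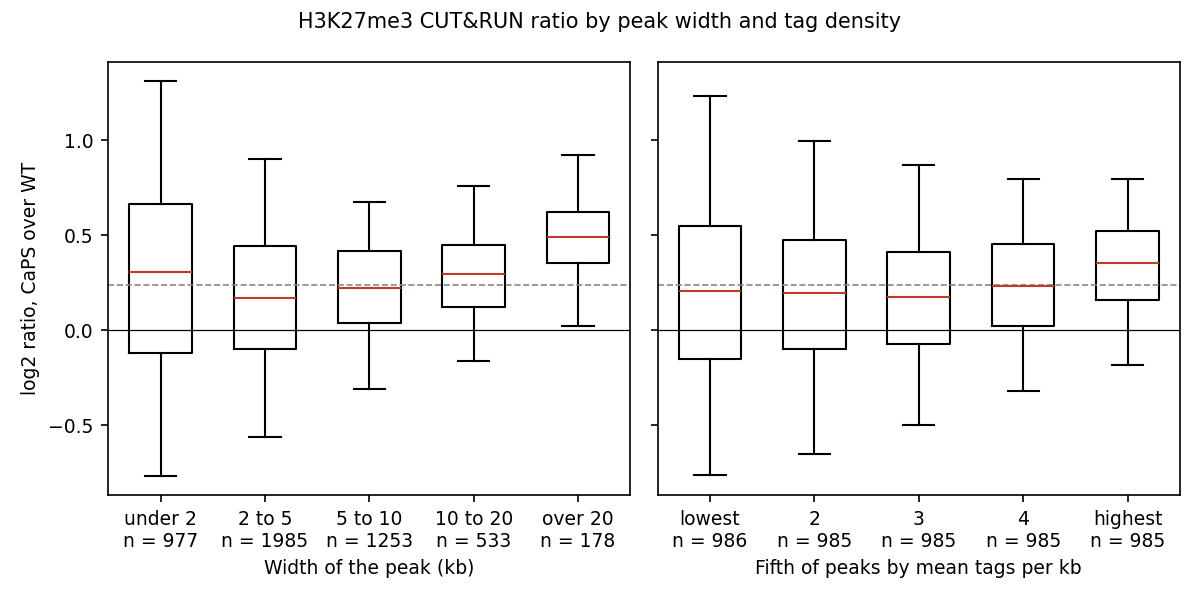
Log2 ratio of CaPS to WT by peak width (left) and in 5 equal groups of mean tags per kb (right); boxes give the quartiles, red lines the medians and whiskers the 5th and 95th percentiles, with the dashed line at the median of all peaks (0.24). Peaks over 20 kb have a median of 0.49, and the densest group 0.35, while narrow peaks have the widest spread.

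Position relative to genes made a smaller difference. The 1677 peaks centred within 1 kb of a start had a median log2 ratio of 0.19, the 2388 between 1 and 5 kb 0.28 and the 861 between 5 and 10 kb 0.24. By the annotation of the peak centre, 878 promoter peaks had a median of 0.20, 309 exonic peaks 0.16, 2032 intronic peaks 0.25 and 1368 intergenic peaks 0.29. Of the peaks past 2-fold higher 15.5% lay within 1 kb of a start, and of those past 2-fold lower 23.3%, against 34.0% of all peaks. Both groups were narrower than peaks in general. Of the 595 genes with more than 1 peak, 300 had all their peaks above WT, 91 all below and 204 peaks on both sides.

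Among the stronger 2465 peaks, those with a mean of at least 65.3 tags per 10 M, 33 were past 2-fold higher and 4 past 2-fold lower. Nr5a2, whose product binds the Pou5f1 promoter in ESC, had the highest ratio. Its 11.5 kb peak over the inner start shown above had 66.5 tags per 10 M in WT and 289 in CaPS, a ratio of 4.35 (3.50 to 5.45). Nfib, a nuclear factor I gene of brain and lung development, had 39.4 and 135, a ratio of 3.39 (2.54 to 4.59). Notum, which encodes a secreted enzyme that inactivates Wnt ligands, had 54.1 and 181, a ratio of 3.34 (2.60 to 4.32). In these genes the WT level was weak and the CaPS level was that of an ordinary strong peak: per kb, Nr5a2 held 5.77 tags in WT and 25.1 in CaPS, and Nfib 9.34 and 32.0.

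Further genes with a high ratio were Pura, a single-stranded nucleic acid binding protein of neurons, with 55.4 and 176, and Hipk2, a kinase acting on p53, with 37.1 and 101 at a peak that lies over Tbxas1. Ica1l had 37.8 and 102, BB283400 42.0 and 108, Stau2, an RNA-binding protein of neuronal transport, 48.5 and 115, and Ier5l 43.0 and 102. Ntn1, the axon guidance cue netrin-1, stood out by its level as well: its 23.4 kb peak had 314 in WT and 774 in CaPS, a ratio of 2.47 (2.22 to 2.75). The 10 genes spanned ratios of 2.36 to 4.35.

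The lowest ratio of the stronger peaks was at Tmc7, which had 270 tags per 10 M in WT and 115 in CaPS, a ratio of 0.424 (0.353 to 0.507), or 2.36-fold lower. Cdh5, the cadherin of endothelial junctions, had 304 and 148 at a peak upstream of the gene, a ratio of 0.486 (0.413 to 0.571). Ror1, a receptor for Wnt5a, had 130 and 62.2, and Nmnat2, an NAD-synthesis enzyme that protects axons, had 119 and 57.3. Hesx1, a homeobox gene of the early forebrain and pituitary that is active in ESC, had 234 and 126, a ratio of 0.537 (0.449 to 0.642). Efcab2, Plbd1, Grm6, E330011O21Rik and Serping1 completed the 10, with ratios of 0.521 to 0.556. In WT, Tmc7 held 18.2 tags per kb and Cdh5 25.7, beside 19.9 over all peaks.

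Grouped by function, the genes with a peak had a median log2 ratio of 0.24 at their strongest peak, 3.75% of the 4261 were past 2-fold higher and 0.728% past 2-fold lower. As deposited, none of the 16 gene lists had a member past 2-fold lower. With the same sum over peaks, which moves each log2 ratio by -0.33, Fzd2 (-0.82) would be past it. In the lists of neural, mesoderm and endoderm regulators the medians lay above that of all genes. Most measured members were above WT, as were 74.4% of all genes. The peaks of these lists were also wide, with median widths of 20.2, 19.6 and 17.4 kb, against 4.45 kb for all genes. Broad peaks as a class were further above WT, and the parts of width and gene function were not told apart. Of 50 neural regulators 44 were measured, with a median of 0.45, 37 above WT and 1 past 2-fold higher. Pax2, of kidney, eye and midbrain, had 1322 and 1907. Gbx2, which positions the midbrain and hindbrain boundary and is also active in ESC, had 486 and 1085, a ratio of 2.24 (2.05 to 2.44). Dbx2, a progenitor factor of the spinal cord, was at the other end, with 115 tags in WT and 89 in CaPS before scaling.

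Of 40 mesoderm regulators 32 were measured, with a median of 0.38 and 31 above WT. Tbx3, a T-box factor that is also listed among the pluripotency genes, had 1097 and 1819, a ratio of 1.66 (1.56 to 1.76). Tbx5, of heart and forelimb, had 513 and 491, and its interval included 1. The only member past 2-fold was Tcf15, a somite factor, with 5.54 and 36.5 (9 and 56 tags before scaling) at a 2.11 kb peak, a ratio of 6.22 (3.05 to 14.3), and it is among the peaks under 20 tags per 10 M in WT. Of 20 endoderm regulators 14 were measured, with a median of 0.41, and all 14 were above WT. Gata4, of heart and primitive endoderm, had 983 and 1310, Ptf1a, of the pancreas, 959 and 1272, Sox18, of vessels and lymphatics, 163 and 280, and Sox7 286 and 319.

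Signalling genes were closer to the median of all genes. Of 35 Wnt ligands and receptors 31 were measured, with a median of 0.24, 23 above WT and 8 below. Wnt1, a ligand of the midbrain, had 768 and 1184, Wnt7a had the highest ratio with 252 and 455, and Fzd2, a receptor, had the lowest with 23.8 and 13.0. Of the 28 BMP, Nodal and Hedgehog genes 19 were measured, with a median of 0.33 and 17 above WT. The growth factor Gdf6 had 709 and 889, the ligand Ihh 456 and 545, the activin antagonist Fst 96.5 and 73.3, and the Hedgehog effector Gli2 20.9 and 40.1. Of 22 FGF ligands 14 were measured, with a median of 0.15 and 10 above WT. Fgf5, a marker of the epiblast stage that follows the naive state, had the lowest ratio of them, with 190 and 121 and an interval of 0.526 to 0.767. Fgf9 had 484 and 544, Fgf12 335 and 483, and Fgf13 48.5 and 77.2. Of 19 retinoic acid genes 12 were measured, with a median of 0.33. Within them the degrading enzymes differed: Cyp26b1 had 431 and 731, a ratio of 1.69 (1.54 to 1.87), and Cyp26a1 had 772 and 793, a ratio of 1.03 (0.948 to 1.11). Meis1, a cofactor of Hox proteins, had 617 and 950, and the receptor Rxrg 78.9 and 74.3.

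Of 7 cyclin-dependent kinase inhibitors 2 were measured, with a median log2 ratio of 1.12. This was 0.88 above all genes, against 0.49 for pluripotency genes, but with genes counted where their start lies inside a peak, a choice made after seeing the data, the order was 0.79 and 0.91. Cdkn2a, which encodes p16 and p19ARF and is a classic Polycomb target, shares a 47.1 kb peak with Cdkn2b (chr4:89264977-89312122), with 1059 tags per 10 M in WT and 2174 in CaPS. Its ratio was 2.05 (1.93 to 2.18). Cdkn2c, which encodes p18, had 443 and 1023 in a 21.9 kb peak (chr4:109648664-109670563), a ratio of 2.31 (2.11 to 2.53). Both were past 2-fold higher, and neither would be with the same sum over peaks, which moves each log2 ratio by -0.33.

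Of 24 pluripotency genes 5 were measured, with a median of 0.73, all above WT and 2 past 2-fold higher. Nr5a2 is given above. Klf4, a reprogramming factor, had 31.9 and 77.8 at a 2.73 kb peak upstream of its start, a ratio of 2.43 (1.73 to 3.46). Tbx3 is given above, Prdm14, which holds back germ-layer and DNA methylation genes, had 127 and 184, and Esrrb, an orphan receptor of naive pluripotency, had 239 and 276. Polycomb subunits had few peaks. Of 19 PRC1 subunits 4 were measured: Cbx2 had 65.2 and 88.9, Pcgf3 33.6 and 50.2, Phc2 60.6 and 73.6, and Yaf2 169 tags in WT and 154 in CaPS before scaling. Of 11 PRC2 subunits Rbbp7 had 20.2 and 18.6 and Phf19 63.2 and 82.7.

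The remaining lists lay below the median of all genes. Of 12 germ cell genes 7 were measured, with a median of 0.15. The germ cell factor Tfap2c had 423 and 478, the stem cell factor receptor Kit 79.5 and 127, Ddx4, the Vasa helicase, 118 and 131, Taf7l 56.0 and 80.8, Sycp1, of the synaptonemal complex, 56 and 41 tags before scaling, Mael 33.9 and 33.5, and Tdrd1 61.9 and 55.7. Of 26 imprinted genes 12 were measured, with a median of 0.21. Grb10, a growth inhibitor, had 869 and 1329, Kcnq1 567 and 945, and Sgce 102 and 64.5. Of 18 feeder fibroblast markers 8 were measured, with a median of 0.09, 4 above WT and 4 below. The collagen genes were split, Col1a1 with 184 and 134, Col5a1 with 54.7 and 35.2, and Col1a2 with 67.1 and 87.3. Pdgfra had 475 and 570, Prrx1 332 and 391, Twist2 206 and 246, Thy1 78.9 and 74.9, and Fbn1 173 and 167. What share of feeder cells each library held was not tested. Of 18 housekeeping genes only B2m had a peak, with 117 and 126.

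**Figure D3:**
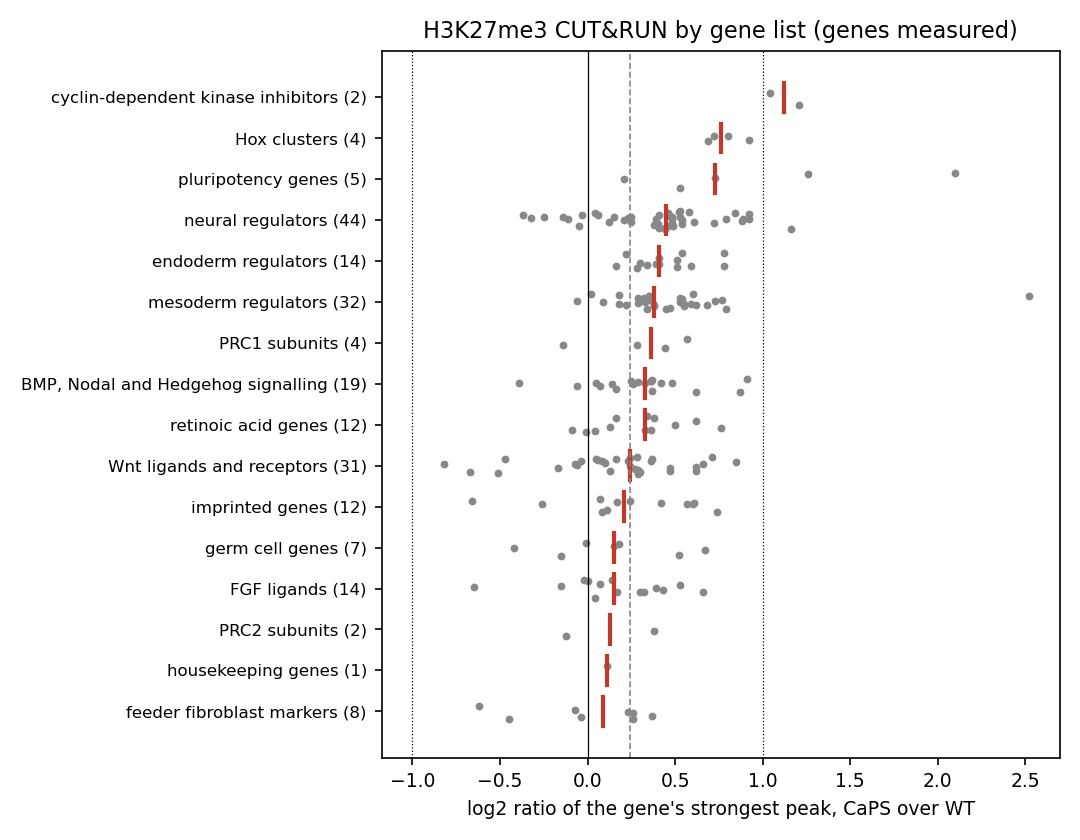
Each point is the log2 ratio of CaPS to WT at the strongest peak of 1 gene, by gene list, with the number of genes measured in brackets, red bars at list medians, the dashed line at 0.24, the solid line at equality and dotted lines at 2-fold. Kinase inhibitors, Hox clusters and pluripotency genes lie farthest right on 2, 4 and 5 genes. The 4 Hox genes are Hoxa3, Hoxb4, Hoxb13 and Hoxd8, so 2 are of HoxB and none is of HoxC, whose peak is annotated to Mir196a-2. With the values as deposited, no point lies left of the lower 2-fold line.

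H3K27me3 was also mapped in ESC by ChIP-seq in 2 experiments, each with 1 WT and 1 CaPS library, and this gives another view of the same regions. ChIP peaks overlapped 2963 of the CUT&RUN peaks by at least 1 base, 60.2% of the CUT&RUN peaks and 41.8% of the 9195 ChIP peaks. WT levels of the 2 assays were correlated across these 2963 regions, with Pearson r of 0.80 and 0.81 on the log2 scale, a description in which both measures share the width of the region. The overall difference between genotypes was not the same. The median log2 ratio at the shared regions was 0.25 in CUT&RUN, 0.24 in ChIP experiment 1 and -0.38 in ChIP experiment 5. The region-by-region ratios were weakly related, with r of 0.12 against experiment 1 and 0.31 against experiment 5, or 0.13 and 0.41 over the 976 shared regions that are strongest in CUT&RUN.

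The difference between broad domains and other regions was not seen in experiment 1. Peaks over 20 kb had a median of 0.22 in ChIP experiment 1, against 0.24 for all, and -0.30 in experiment 5, against -0.38 for all. The summed ChIP signal under the HoxC peak was 3619 in WT and 4247 in CaPS in experiment 1 and 6979 and 5896 in experiment 5. Under the HoxA peak it was 4221 and 4058, and 8411 and 5702. The log2 ratios were 0.23 and -0.24 at the HoxC peak and -0.06 and -0.56 at the HoxA peak, while the other 3 Hox peaks had 0.14 to 0.19 in experiment 1 and -0.36 to -0.30 in experiment 5. HoxA lies on chromosome 6, whose median was -0.25 and -0.27 from that of all regions in the 2 ChIP experiments, and the part of this offset in the HoxA values was not tested. Cdkn2a had 565 and 784 in experiment 1 and 1231 and 1177 in experiment 5, log2 ratios of 0.47 and -0.06, both above the median of their experiment. Cdkn2c had 308 and 363, then 567 and 569, log2 ratios of 0.24 and 0.01.

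For the regions with the largest CUT&RUN ratios the ChIP data were mixed. Of the 71 peaks past 2-fold higher that overlapped a ChIP peak, 39 were above the ChIP median in both experiments, 7 in neither and 25 in 1 of them, where of all 2963 regions 831 were above in both. Of the 8 past 2-fold lower 1 was above in both and 3 in neither. Against WT, 5 of these 8 were higher in experiment 1, with a median log2 ratio of 0.24. In experiment 5, 0 of them were higher, with a median of -0.79. Pura had 48.8 and 65.0 in experiment 1 and 48.3 and 122 in experiment 5, and Nfib 48.4 and 53.2, then 45.1 and 81.1. Both genes were above WT in both H3K27me3 ChIP experiments. In experiment 1, however, Nfib had a log2 ratio of 0.13, below the median of all regions, 0.24. Nr5a2 had 11.9 and 10.5, then 11.0 and 11.8, where the ChIP peak was weak and did not show the difference of CUT&RUN. Cdh5 was lower in each, with 38.8 and 27.3, then 71.2 and 33.8, and so was Hesx1, with log2 ratios of -1.46 and -0.86. Plbd1 was also lower in each, with -0.27 and -0.70. Ror1 was higher in experiment 1 and lower in experiment 5, with 4.61 and 14.6, then 15.3 and 4.13. Grm6 had log2 ratios of 0.08 and -0.63. Tmc7 had no ChIP peak.

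Median RING1B and CBX7 ratios at these regions, as deposited, were below WT in every experiment compared here, by differing amounts. The series also lists a further pair of WT and CaPS libraries of RING1B ChIP in ESC. That pair was not compared, so its direction is not known here. The median of H3K27me3 CUT&RUN was 0.24 as deposited and -0.08 with the same sum over peaks. That scaling was not applied to the other assays, so how far their medians depend on it was not tested. Their totals were less equal, for example 19.1 M tags in WT and 11.3 M in CaPS for RING1B CUT&RUN. For CBX7 ChIP experiment 3 they were 17.7 M and 49.1 M. RING1B CUT&RUN peaks overlapped 3326 of the H3K27me3 peaks (67.5%), and RING1B had a median log2 ratio of -0.77 there, with 92 regions above WT, while H3K27me3 at the same regions had 0.22. The table of CBX7 and RING1B ChIP intervals overlapped 3076 peaks (62.4%). CBX7 had medians of -1.21, -1.24 and -0.68 in its 3 experiments and RING1B -0.83, -1.25 and -0.24, with H3K27me3 CUT&RUN at 0.23. RING1B ChIP experiment 3 was above WT in 850 of the 3076 regions, and in 60 of the 86 that were past 2-fold higher in H3K27me3 CUT&RUN. CBX7 ChIP was above WT in 6, 11 and 35 of these 86 in experiments 1 to 3. Of the 3076 regions it was above WT in 111, 136 and 248. The HoxC peak had 5899 and 5227 tags per 10 M in RING1B CUT&RUN, and CBX7 went from 10578 in WT to 4692 in CaPS in experiment 1, from 29789 to 12582 in experiment 2 and from 9400 to 6731 in experiment 3. At Cdkn2a RING1B CUT&RUN had 857 and 776 and CBX7 ChIP 1597 and 882, then 4119 and 2040, then 1431 and 1336. RING1B ChIP at Cdkn2a had log2 ratios of -0.75, -0.89 and 0.29 in experiments 1 to 3, so that it was above WT in the third, as it was at Cdkn2c (0.37), Nr5a2 (0.75) and Pura (1.35). Levels of different assays are on different scales, so only the ratios within an experiment are set side by side.

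**Figure D4:**
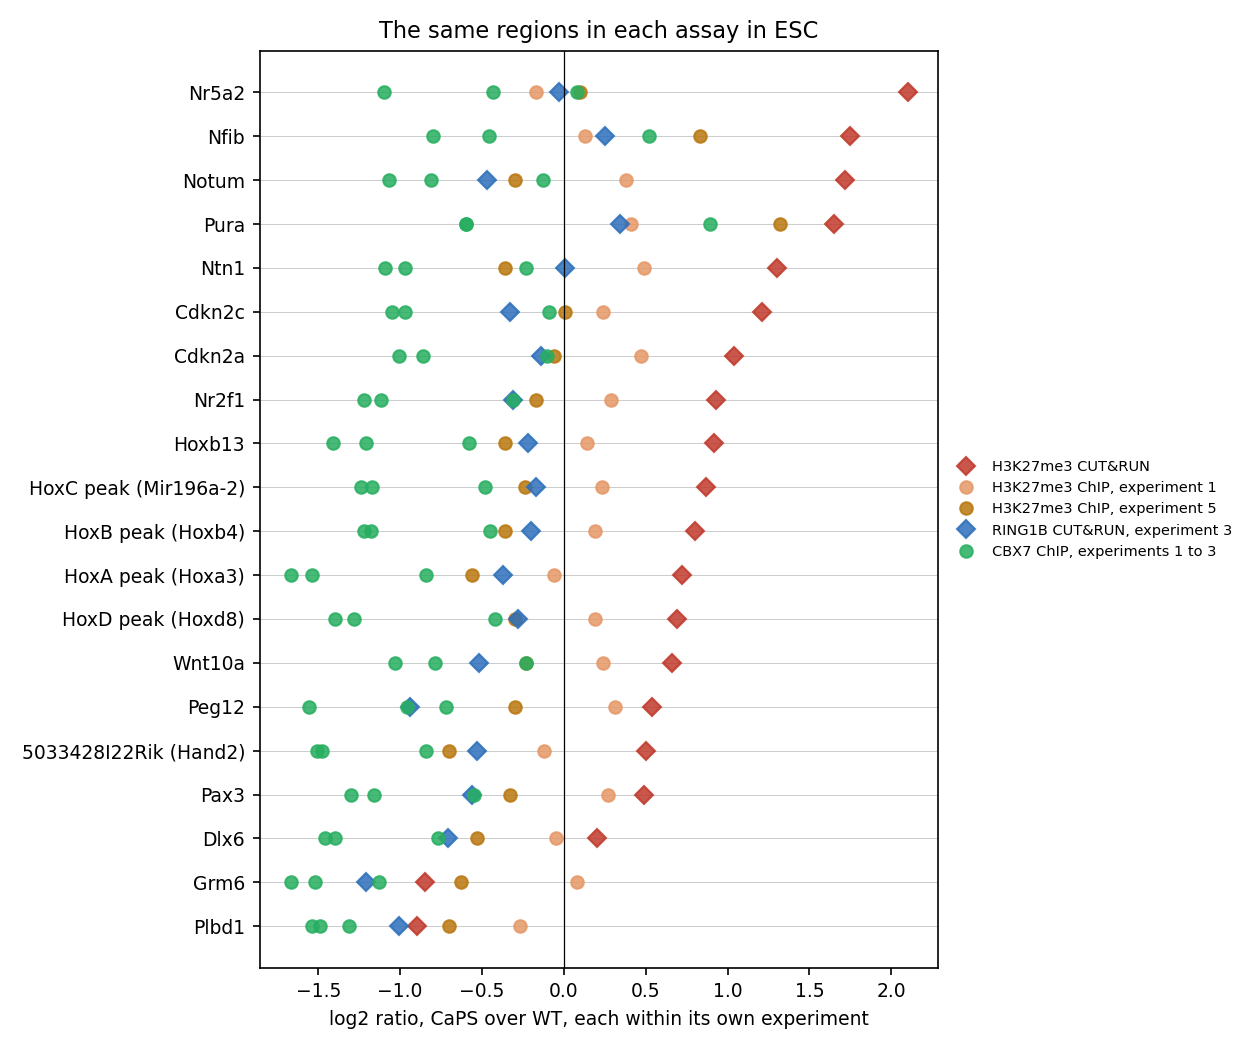
Log2 ratio of CaPS to WT at 20 regions in H3K27me3 CUT&RUN (red diamonds), H3K27me3 ChIP experiments 1 and 5 (orange and brown circles), RING1B CUT&RUN (blue diamonds) and CBX7 ChIP experiments 1 to 3 (green circles), each within its own experiment. The regions are those of the genes with the highest WT value and the highest and lowest CUT&RUN ratios that every plotted assay measured, with Cdkn2a and Cdkn2c, a choice made after seeing the data. H3K27me3 CUT&RUN is the highest point in 18 rows, which a choice by CUT&RUN values favours, and not in those of Grm6 and Plbd1. CBX7 ChIP of experiments 1 and 2 lies below 0 in all 20, and that of experiment 3 in 17.

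The H3K27me3 ratio was similar with and without a RING1B peak. The 3494 peaks that overlapped a RING1B peak of either assay had a median of 0.23, with 3.06% past 2-fold higher and 0.630% past 2-fold lower. The 1432 that overlapped neither had a median of 0.29, with 6.98% and 1.47%, and they were narrower, with a median width of 2.19 kb against 5.35 kb, and sparser, with 13.8 against 19.2 tags per kb.

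In stretches where the RING1B CUT&RUN table lists neighbouring peaks at 0 in 1 library, H3K27me3 CUT&RUN had tags in both. On chromosome 1 (39361790 to 44552793), 23 RING1B peaks are at 0 in CaPS, and 12 H3K27me3 peaks there summed to 2102 in WT and 2642 in CaPS. Among them Pou3f3, a POU factor of the brain, had 1179 and 1700 and the exchanger gene Slc9a2 434 and 408. On chromosome 5 (3341502 to 9266723), with 15 RING1B peaks at 0 in CaPS, 12 H3K27me3 peaks summed to 890 and 1074. On chromosome 12 (9029059 to 9585741), with 2 RING1B peaks at 0 in WT, there were 2 H3K27me3 peaks. Osr1, a factor of kidney mesoderm, had 607 and 915, and 1700022H16Rik had 30.6 and 27.4. The median log2 ratios of H3K27me3 in these stretches were 0.13, 0.27 and 0.22, the last from 2 peaks at -0.16 and 0.59.

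By chromosome the median log2 ratio of H3K27me3 CUT&RUN ran from 0.12 to 0.35, beside 0.24 over all peaks. The median was lowest on chromosome 14, at 0.12 over 175 peaks, and chromosome 15, at 0.14 over 204, and highest on chromosome X, at 0.35 over 111. On chromosomes 6 and 8 the CUT&RUN medians were 0.20 and 0.18, that is -0.04 and -0.06 from all peaks. In H3K27me3 ChIP the same 2 chromosomes lay -0.25 and -0.30 from the median of all regions in experiment 1 and -0.27 and -0.39 in experiment 5. Chromosome 14 was the lowest in CUT&RUN, at -0.12 from all peaks, and lay at -0.07 and -0.16 in ChIP. The ChIP offsets of chromosomes 6 and 8 therefore had no counterpart of that size in the CUT&RUN pair, and whether the cells of the 2 assays differed in copy number was not tested.

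**Figure D5:**
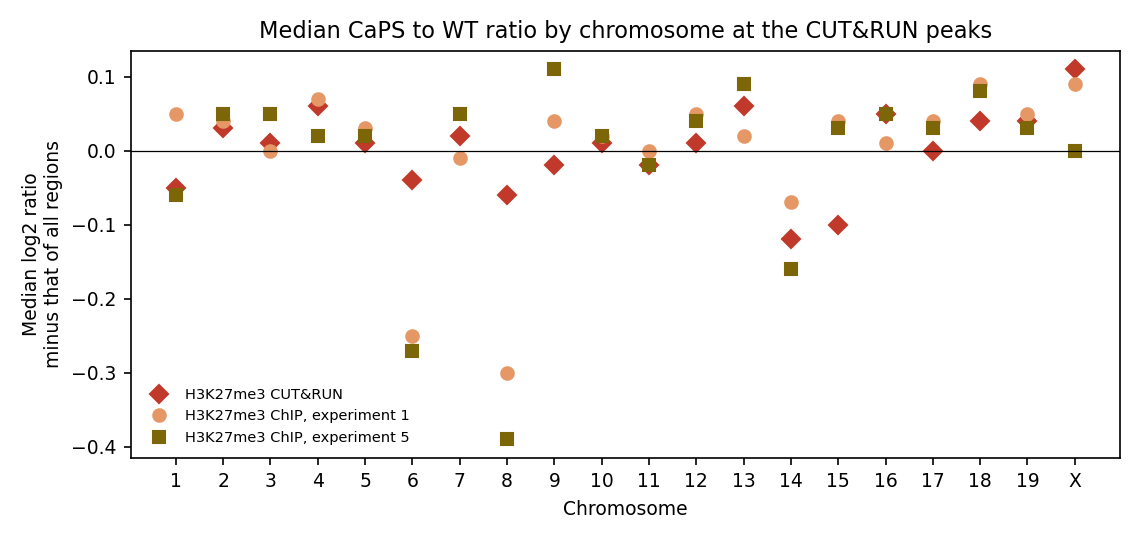
Median log2 ratio of CaPS to WT on each chromosome minus the median of all regions, for H3K27me3 CUT&RUN (red diamonds) and H3K27me3 ChIP experiments 1 and 5 (orange circles and brown squares) at the CUT&RUN peaks. Chromosomes 6 and 8 lie between -0.25 and -0.39 in ChIP but at -0.04 and -0.06 in CUT&RUN.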

How the data were processed

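Per the file headers, the deposited values are tags in each peak scaled to 10 M tags per library (unit: signal, made with HOMER on mm10). Per the submitters' processing notes, the tools were HOMER 4.10.4, SAMtools 1.9, Bowtie2 2.3.4.3 and cutadapt 1.14, with mm10 and dm6 named. Peaks were called over IgG, per the series design text. On which library, how the 10 kb and 20-tag limits of the table arose, and whether totals carry a spike-in correction are not given in the sources used here. Tags recovered from value and header total came within 0.0077 of whole or 0.5 tags. From these, ratios were computed as log2 of (value + 1), with exact intervals from tags rounded to whole numbers (Python 3.11.15, scipy 1.17.1), tested on simulated data. "Past 2-fold" is a description, since 1 library per genotype allows no test. A gene was measured by its strongest peak within 10 kb. Other assays were summed over peaks overlapping by 1 base. Genes named were the 12 strongest in WT, the 10 lowest and 10 highest ratios among the 2465 stronger peaks, and of each list the 2 strongest with the lowest and highest, or all where at most 8 were measured. One result that this rule names is not reported here. Slc9a2, Pou3f3 and Osr1 were chosen after their values were seen. Members and lists were chosen with earlier results of these data known. Alternatives covered scaling, pseudocount, filters, chromosomes and gene assignment. Values in 2 columns that match no sample used here were not used.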

Additional observations from a re-analysis of the deposited data

How the results depend on the processing

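With 1 library per genotype no replicate could be left out. No paired analysis was possible because the result comes from no test. The median log2 ratio of 0.24 became -0.08 with both libraries scaled to the same sum over peaks and 0.0 when scaled to a median ratio of 1, the latter by construction. It was 0.23 with a pseudocount of 5, 0.25 among the stronger 2465 peaks, and 0.22 among peaks at 20 or more in both libraries. The 207 peaks past 2-fold higher and 43 lower became 81 and 155 with the same sum, 102 and 106 with a median ratio of 1, 136 and 23 with a pseudocount of 5, 33 and 4 among the stronger peaks, 66 and 9 among peaks at 20 or more in both, and 847 and 206 at 1.5-fold. Unscaled tags, a pseudocount of 0.1, autosomes only, and leaving out chromosomes 6, 8 and 14 kept both counts within 1.5 times. List medians, taken relative to all genes, changed side only for FGF ligands (from -0.09 to 0.01 within 2 kb), PRC1 subunits (from 0.12 to -0.35 within 2 kb and -0.08 at the nearest peak) and PRC2 subunits (from -0.11 to 0.16 within 2 kb, 1 gene). The Hox median was 0.48 to 0.53 above all genes in each setting, and the pluripotency median 0.48 to 0.91. In the main setting the Hox median rests on 4 genes and leaves out the HoxC peak. With at least 50% of the peak covered, overlap with H3K27me3 ChIP was 17.1% in place of 60.2%.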
